A study of Mus musculus with 13 samples.

Results

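The IL-6 family was followed through 7 genes, taken as the entries of the raw expression table named Il6ra, Il6st, Lif, Lifr, Osm, Il27ra and Il6, out of 55774 gene entries. All 7 were found, each as a single entry, and 6 of them had enough counts to be among the 15781 genes tested, the exception being Lifr. RNA came from naive splenic CD4+ T cells of female BDC2.5 transgenic NOD mice, which carry the Tcra and Tcrb chains of a T cell receptor against an islet antigen. The cells had been cultured for 96 h with islet macrophages of NOD/ShiLtJ donors given streptozotocin (STZ, a toxin of insulin-producing beta cells; 5 libraries, called STZ-macrophage co-cultures), with islet macrophages of donors given buffer only (4 libraries, control-macrophage co-cultures), or were taken without macrophages (4 libraries, cells alone). Donors were injected at 4 weeks of age and islets were taken 10 days later, at 5.5 weeks. The macrophages were isolated on magnetic beads, and before RNA extraction the T cells were sorted as viable CD45+Thy1.2+CD4+ events, so the measured RNA is that of this gate. The labels call the libraries biological replicates, and give no culture time for the cells alone, so every difference from them holds the effect of macrophages and any effect of culture together.

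IL-6 family cytokines signal through gp130, the shared receptor chain encoded by Il6st. IL-6 binds its own receptor chain (Il6ra) before it engages gp130, and LIF (Lif) uses gp130 together with the LIF receptor (Lifr). Oncostatin M (Osm) uses gp130 with a second chain such as the oncostatin M receptor chain (Osmr), and IL-27 uses gp130 together with Il27ra. The chains activate JAK kinases and STAT factors, STAT3 among them. In CD4+ T cells IL-6 is known for steering naive cells towards Th17 cells, LIF for restraining that fate, and IL-27 for IL-10 production. Naive CD4+ T cells carry the IL-6 receptor, and antigen stimulation is known to lower it.

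The promoters of 3 members are shown: those of Lif and Il6, which had no count in cells alone, and that of Il6ra, the receptor whose 3 groups did not overlap. Each sequence is the 250 bases before the RefSeq start (GRCm38.p6), on the gene's own strand, at chr11:4257318-4257567 (+) for Lif, chr5:30012864-30013113 (+) for Il6 and chr3:89913197-89913446 (-) for Il6ra. Capitals mark matches to the AP-1 motif TGANTCA.
Lif: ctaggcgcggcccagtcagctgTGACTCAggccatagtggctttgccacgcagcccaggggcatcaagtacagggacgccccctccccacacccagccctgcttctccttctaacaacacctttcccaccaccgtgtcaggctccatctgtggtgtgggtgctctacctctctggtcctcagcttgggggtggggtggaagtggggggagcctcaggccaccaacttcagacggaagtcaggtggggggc
Il6: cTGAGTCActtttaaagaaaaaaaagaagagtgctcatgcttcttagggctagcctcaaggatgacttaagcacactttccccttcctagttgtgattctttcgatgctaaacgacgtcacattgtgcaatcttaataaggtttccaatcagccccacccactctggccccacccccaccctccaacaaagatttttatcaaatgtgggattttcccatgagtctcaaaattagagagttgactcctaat
Il6ra: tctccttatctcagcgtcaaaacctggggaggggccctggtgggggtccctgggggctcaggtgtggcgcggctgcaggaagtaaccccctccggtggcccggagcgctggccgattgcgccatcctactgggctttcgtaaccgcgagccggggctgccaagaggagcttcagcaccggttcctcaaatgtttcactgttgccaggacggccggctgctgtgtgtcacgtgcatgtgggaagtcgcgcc
Both strands were searched for the AP-1 motif and for the STAT motif TTCNNNGAA. The AP-1 motif was found in the window of Lif, with its first base 228 bases before the start, and in that of Il6, 249 bases before it. No window of Il6ra, Il6st, Lif, Il6 or Lifr (2 starts) held the STAT motif, and those of Il6ra, Il6st and Lifr held no AP-1 motif either. Over 32851 promoter windows of the same length, 6.75% held the AP-1 motif and 7.02% the STAT motif. The RefSeq table matched 5 of the 7 members, and Osm and Il27ra were not matched.

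Libraries held 17.3 to 61.3 M counts, with 15246 to 21014 genes detected, and 3 counts in a library corresponded to 0.0493 to 0.133 counts per M counts (CPM). Collection day 1 holds STZ-macrophage replicates 1 and 5, control-macrophage replicates 1, 2 and 4 and all cells alone, and day 2 holds STZ-macrophage replicates 2, 3 and 4 and control-macrophage replicate 3, so day was a term of the model. The 9 T cell markers were detected in every library and summed to 9215 to 12472 CPM in STZ-macrophage co-cultures, 12342 to 22455 CPM in control-macrophage co-cultures and 7405 to 14380 CPM in cells alone. Summed macrophage and other myeloid markers (18 genes) were 26.5 to 127, 7.44 to 62.8 and 2.98 to 14.1 CPM in the same order of groups, with Marco and Cd14 at 0 in cells alone. Summed islet endocrine markers (10 genes) were 164 and 143 CPM in STZ-macrophage replicates 2 and 4 and at most 3.33 CPM in the other co-cultures, so STZ-macrophage results were also computed without these libraries. Summed B cell markers (8 genes) were 151 to 199, 596 to 768 and 723 to 1678 CPM in the 3 groups. Mast cell and granulocyte markers (6 genes) summed to 50.8 to 68.1, 22.8 to 40.0 and 0.0585 to 1.54 CPM. Those of CD8 T and NK cells (6 genes) summed to 128 to 185, 43.4 to 179 and 16.9 to 41.5 CPM. Endothelial and stromal markers (8 genes) summed to 70.7 to 88.3, 181 to 279 and 95.9 to 290 CPM. In bulk RNA, fewer cells of a type and less RNA per cell cannot be told apart.

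In co-culture the ligand transcripts were higher and a pair of receptor transcripts lower than in cells alone. Against cells alone, Lif, Osm and Il6 were higher and Il6ra and Il6st lower in STZ-macrophage co-cultures and, separately, in control-macrophage co-cultures, 5 of the 6 tested members in each comparison; Il27ra passed in neither. These comparisons share the cells-alone libraries. Of all genes tested, 43.1% were called with STZ macrophages (20.8% higher and 22.3% lower) and 45.0% with control macrophages (23.1% higher and 22.0% lower), at an adjusted p below 0.05 (edgeR quasi-likelihood test, Benjamini-Hochberg). Groups did not overlap for 5 of the 6 members with STZ macrophages, where 39.6% of all genes did not (21.7% higher and 17.9% lower). With control macrophages they did not for 4 of the 6, where 39.8% of all genes did not (22.2% higher and 17.7% lower). Both control-macrophage counts of members include Il6, which had 1 to 13 counts per control-macrophage library. With only control-macrophage co-cultures and cells alone in the fit, Il6 had too few counts to be tested. Between the co-cultures, 1 of the 6 was called, Il6ra, which was lower with STZ macrophages, where 0.323% of all genes were called, 0.171% as lower.

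**Figure D1:**
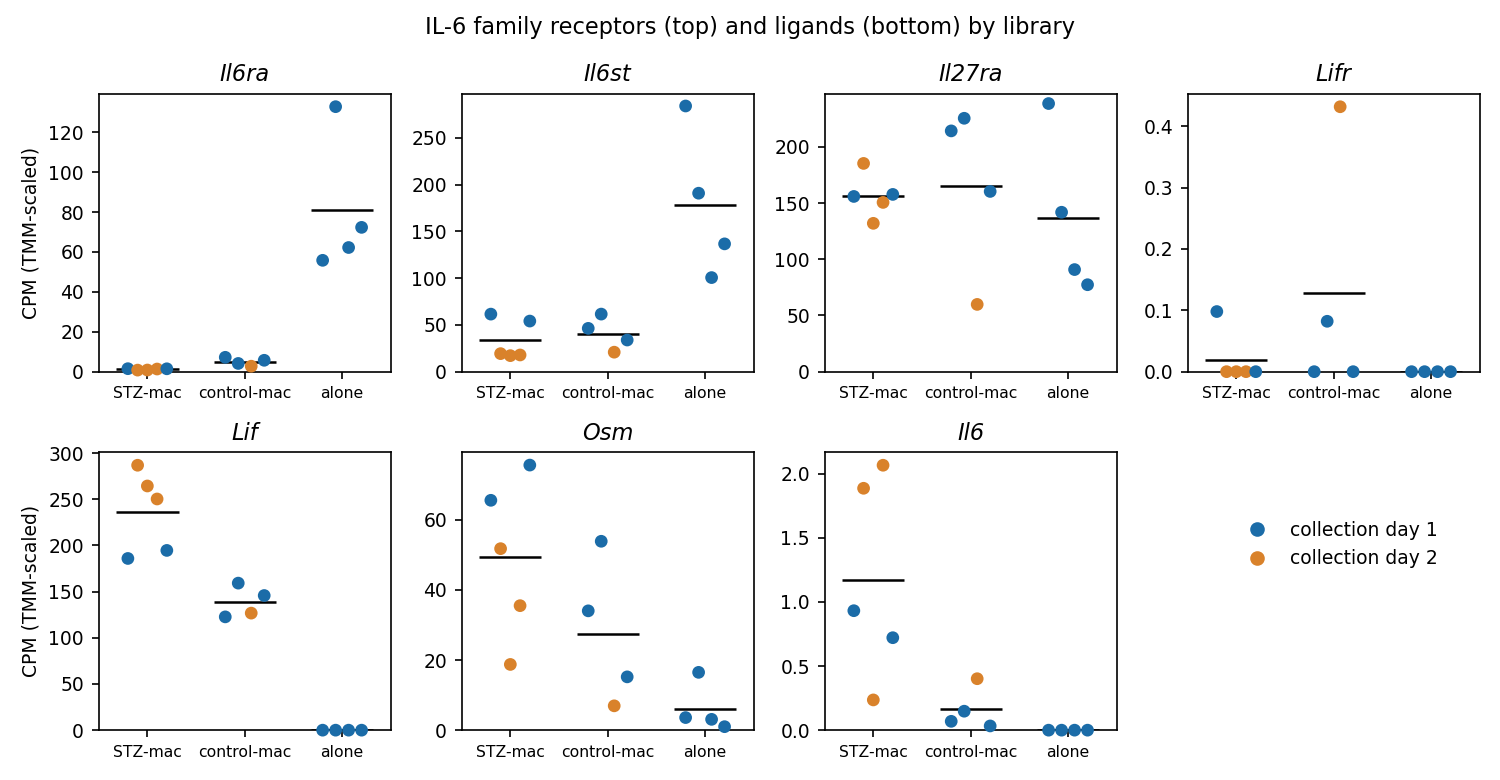
Expression in CPM of the members in each library, STZ-macrophage co-cultures left of control-macrophage co-cultures and cells alone; points are libraries, coloured by collection day, and lines are group means. Il6ra lies at 0.781 to 1.495 CPM in STZ-macrophage libraries, below all control-macrophage libraries, while Lif has no count in cells alone.

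Among the receptors, Il6ra, the chain that binds IL-6, showed the steepest order of groups. It was at 1.495, 0.781, 0.825, 1.33 and 1.44 CPM in STZ-macrophage replicates 1 to 5, against 7.20, 4.12, 2.75 and 5.70 CPM in control-macrophage replicates 1 to 4 and 55.8, 132.85, 62.2 and 72.3 CPM in cells alone. The 3 groups did not overlap. The values rest on 28 to 61, 89 to 251 and 1818 to 2989 counts per library in the same order of groups. Means were 1.17 ± 0.344 CPM (SD, n = 5) in STZ-macrophage co-cultures, 4.94 ± 1.93 CPM (n = 4) in control-macrophage co-cultures and 80.8 ± 35.4 CPM (n = 4) in cells alone.

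Il6ra fell in both co-cultures against cells alone, with a log2 fold change of -5.67 with STZ macrophages (SE 0.42, adjusted p = 7.5e-07) and -3.90 with control macrophages (SE 0.36, adjusted p = 3.5e-06). Between co-cultures the log2 fold change was -1.78 (SE 0.33), a 3.43-fold lower level with STZ macrophages, with an adjusted p of 0.04998 just under the threshold. That call was lost when any of the 9 co-culture libraries, or cells-alone replicate 3, was left out (adjusted p = 0.0767 to 0.245 in these 10 fits), and it was kept without cells-alone replicate 1, 2 or 4. The log2 fold change stayed between -2.07 and -1.57 in all 23 alternatives, with adjusted p from 2.3e-04 to 0.554. Within days it was -1.95 on day 1 and -1.49 on day 2, and these values did not differ beyond their error (difference 0.45, SE 0.69, adjusted p = 1.00); 0 of the 6 members and 0.00634% of all genes had a called day difference, with 1 member, Il27ra, at an unadjusted p below 0.05 in edgeR and in DESeq2. DESeq2 called 0 members as well, and 2.52% of all genes (398). With only the groups compared, 2 members (Il27ra and Lif) and 12.1% of all genes (1802 of 14881) had a called day difference. The co-cultures did not overlap for 2 of the 6 members, Il6ra (lower) and Lif (higher), and for 7.55% of all genes, 5.08% as lower and 2.46% as higher. Naive T cell markers (5 genes, Ccr7, Tcf7, Lef1, Klf2 and S1pr1) summed to 1183 to 1421 CPM in STZ-macrophage co-cultures, 1904 to 2325 CPM in control-macrophage co-cultures and 5320 to 6527 CPM in cells alone, so these groups did not overlap and had the same order as those of Il6ra. Activated T cell markers (4 genes, Il2ra, Cd44, Mki67 and Cd69) summed to 1903 to 3243 CPM in STZ-macrophage co-cultures, 1807 to 4587 CPM in control-macrophage co-cultures and 34.5 to 75.8 CPM in cells alone, where Il2ra was at 0, and the co-cultures overlapped. The part of either list in the Il6ra result was not tested. Il6ra lies at chr3:89864059-89913196 on the minus strand (GRCm38), and 2.80% of its exonic bases overlap the antisense gene Gm42809, whose reads cannot be told apart in an unstranded library.

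Il6st, which encodes gp130, was lower in the co-cultures but did not separate them. It was at 61.5, 19.3, 17.1, 17.8 and 54.1 CPM in STZ-macrophage libraries, against 46.3, 61.5, 20.8 and 33.8 CPM in control-macrophage libraries and 284.0, 190.8, 100.6 and 136.6 CPM in cells alone. All 9 co-cultures lay below all cells alone. Against cells alone Il6st fell, with a log2 fold change of -1.74 with STZ macrophages (SE 0.33, adjusted p = 0.00113) and -1.83 with control macrophages (SE 0.32, adjusted p = 5.0e-04). In the authors' adjusted log2 table the same differences were -3.89 and -4.10. Between the co-cultures the log2 fold change was 0.10 (SE 0.29, adjusted p = 0.848), with an interval of 2 standard errors from -0.48 to 0.68, and its sign turned without STZ-macrophage replicate 1 (-0.0017). Its level in co-cultures differed with the day. The day 1 libraries held 57.8 ± 5.25 CPM with STZ macrophages (SD, n = 2) and 47.2 ± 13.9 with control macrophages (n = 3), and the day 2 libraries 18.1 ± 1.09 CPM with STZ macrophages (n = 3) and 20.8 CPM in the 1 control-macrophage library. Il6st lies at chr13:112464070-112510086 on the plus strand.

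The ratio of gp130 transcript to IL-6 receptor transcript per exonic length had a median of 19.2 in STZ-macrophage libraries, 5.46 in control-macrophage libraries and 1.36 in cells alone. By library it was 32.04, 19.2, 16.2, 10.5 and 29.2 in STZ-macrophage libraries, against 5.01, 11.6, 5.91 and 4.62 in control-macrophage libraries and 3.96, 1.12, 1.26 and 1.47 in cells alone. The ratios of STZ-macrophage and control-macrophage libraries overlapped, since STZ-macrophage replicate 4 (10.5) lay below control-macrophage replicate 2 (11.6). The lowest co-culture ratio, 4.62, was above the highest of the cells alone, 3.96.

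Il27ra, the IL-27 receptor chain, was the receptor whose level did not move past the test. It was at 155.9, 185.3, 132.0, 150.6 and 157.7 CPM in STZ-macrophage libraries, against 214.3, 225.5, 59.9 and 160.4 CPM in control-macrophage libraries and 238.6, 141.9, 90.9 and 77.4 CPM in cells alone. The groups overlapped in every pair. The log2 fold change was 0.25 between STZ-macrophage and control-macrophage co-cultures (SE 0.43, adjusted p = 0.728, interval -0.61 to 1.10), 0.58 between STZ-macrophage co-cultures and cells alone (SE 0.46, adjusted p = 0.325) and 0.33 between control-macrophage co-cultures and cells alone (SE 0.38, adjusted p = 0.494). The sign between co-cultures turned without control-macrophage replicate 3 (-0.21), and in the authors' adjusted log2 table Il27ra was lower than in cells alone in both co-cultures (-1.37, adjusted p = 0.0230, with STZ macrophages and -1.97, adjusted p = 0.00105, with control macrophages, limma). Within days the effect of STZ macrophages was -0.35 on day 1 and 1.38 on day 2, and the difference between days, 1.73 (SE 0.68), had an unadjusted p of 0.0256 and an adjusted p of 0.402. Per exonic length Il27ra was the most abundant of the 4 receptor members in each group, at 44.7 CPM per kb with STZ macrophages and 47.2 CPM per kb with control macrophages, against 39.3 CPM per kb in cells alone. Il6st stood at 3.06, 3.66 and 16.0 CPM per kb and Il6ra at 0.136, 0.572 and 9.35 CPM per kb in the same order of groups. Il27ra lies at chr8:84030294-84042589 on the minus strand.

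**Figure D2:**
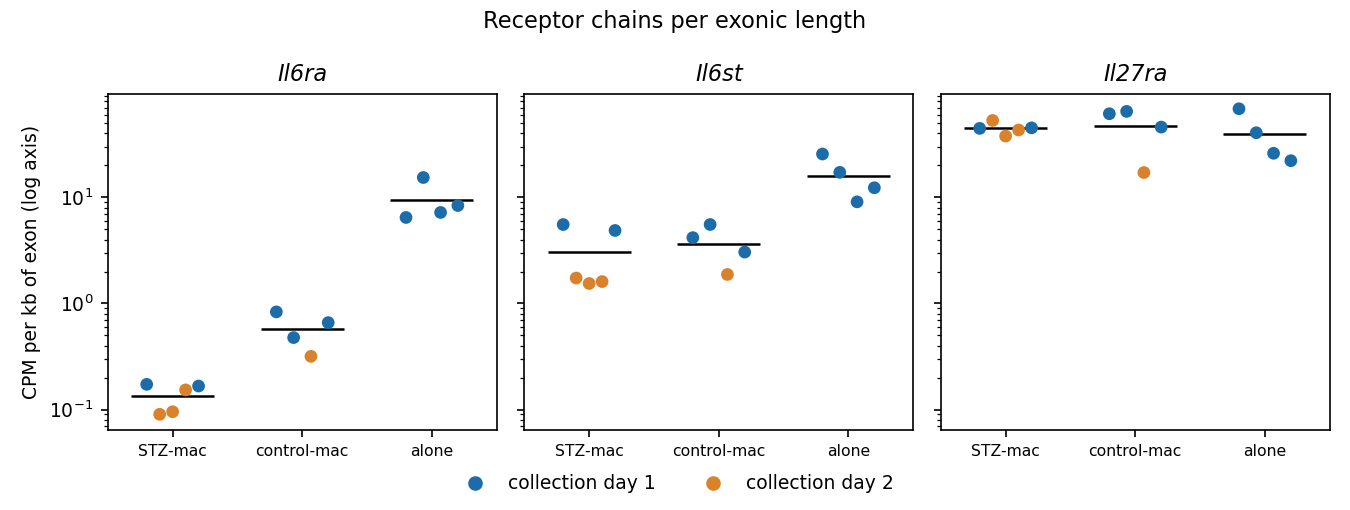
Receptor level in CPM per kb of exonic sequence (log axis) for Il6ra, Il6st and Il27ra in each library of the 3 groups; points are libraries, coloured by collection day, and lines are group means. Il27ra overlaps between the groups, while Il6st and Il6ra are lower in all co-cultures than in all cells alone.

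Lifr, the LIF receptor chain, was almost absent. It had 4 counts in STZ-macrophage replicate 1 and 0 in the other STZ-macrophage libraries, 5 and 14 counts in control-macrophage replicates 2 and 3 and 0 in the other control-macrophage libraries, and 0 in all cells alone. A count of 0 in the 4 cells-alone libraries allows up to 0.0224 CPM over the group, from a floor of 3 counts. It was too low for the filter on low counts. With no filter, it was not called in any comparison (adjusted p = 0.706 between the co-cultures, 0.314 with STZ and 0.147 with control macrophages against cells alone, edgeR). It lies at chr15:7090614-7197489 on the plus strand.

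Among the ligands, Lif, which encodes LIF, was the most abundant in co-culture. It was at 185.9, 286.8, 264.3, 250.3 and 194.6 CPM in STZ-macrophage libraries, against 122.7, 159.2, 126.7 and 145.8 CPM in control-macrophage libraries and 0 in all 4 cells-alone libraries. The 3 groups did not overlap. Against the floor of 3 counts over the cells alone, Lif was at least 10662-fold higher with STZ macrophages (adjusted p = 8.7e-09) and at least 6369-fold higher with control macrophages (adjusted p = 7.2e-09). Means were 236 ± 44.2 CPM in STZ-macrophage libraries (SD, n = 5) and 139 ± 17.0 CPM in control-macrophage libraries (n = 4).

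Between the co-cultures Lif had a log2 fold change of 0.66 (SE 0.19), a ratio of 1.58, and did not pass (adjusted p = 0.149, interval 0.28 to 1.05) although all STZ-macrophage libraries lay above all control-macrophage libraries. It passed without cells-alone replicate 2 (0.85, adjusted p = 0.0375) and in 2 other alternatives, and adjusted p ran from 0.0150 to 0.554. Within days the effect was 0.42 on day 1 and 1.08 on day 2, and the difference of 0.66 (SE 0.33) did not pass (adjusted p = 0.593). Lif lies at chr11:4257557-4272514 and Osm at chr11:4236420-4241026, on the plus strand, 16.53 kb apart with 0 annotated genes between them.

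Osm, which encodes oncostatin M, was at 65.6, 51.8, 18.7, 35.5 and 75.6 CPM in STZ-macrophage libraries, against 34.03, 53.9, 6.94 and 15.2 CPM in control-macrophage libraries and 3.59, 16.5, 3.09 and 0.995 CPM in cells alone. STZ-macrophage libraries lay above all cells alone, and control-macrophage libraries overlapped them. Osm rose by 3.85 on the log2 scale in STZ-macrophage co-cultures (SE 0.84, adjusted p = 0.00276) and by 2.35 in control-macrophage co-cultures (SE 0.74, adjusted p = 0.0203) against cells alone. The control-macrophage call was lost without control-macrophage replicate 2 (1.89, adjusted p = 0.0691), with library totals (1.97, adjusted p = 0.0556) and with only the groups compared (2.498, adjusted p = 0.0588). Without cells-alone replicate 2, which was at 16.5 CPM, the log2 fold changes were 5.28 with STZ macrophages and 3.60 with control macrophages. Between co-cultures the log2 fold change was 1.501 (SE 0.77, adjusted p = 0.253, interval -0.04 to 3.04). Within day 1 the means were 70.6 CPM with STZ macrophages and 34.4 CPM with control macrophages, and within day 2 they were 35.3 CPM with STZ macrophages and 6.94 CPM in the 1 control-macrophage library.

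Il6 was present at a low level in the sorted cells and had no count in cells alone. It was at 0.931, 1.886, 0.236, 2.065 and 0.721 CPM in STZ-macrophage libraries (8 to 99 counts), against 0.069, 0.148, 0.401 and 0.033 CPM in control-macrophage libraries (1 to 13 counts), so the co-cultures overlapped through STZ-macrophage replicate 3 and control-macrophage replicate 3, which are both of day 2. Against the floor over the cells alone it was at least 54.3-fold higher with STZ macrophages (adjusted p = 0.00127) and at least 7.31-fold higher with control macrophages (adjusted p = 0.0137). With the replicate number as a block the calls did not hold (log2 fold change 6.40, adjusted p = 0.0814, with STZ macrophages and 4.82, adjusted p = 0.0778, with control macrophages). Between the co-cultures the log2 fold change was 2.60 (SE 0.83, adjusted p = 0.160), and without STZ-macrophage replicates 2 and 4 it was 2.37 (adjusted p = 0.484). Il6 is also a myeloid product: summed macrophage and other myeloid markers were 26.5, 34.1, 116, 127 and 30.4 CPM in STZ-macrophage replicates 1 to 5, against 7.44, 8.76, 62.8 and 12.5 CPM in control-macrophage replicates 1 to 4. The highest Il6 values, in STZ-macrophage replicates 4 and 2, sat with 127 and 34.1 CPM of these markers. STZ-macrophage replicate 3, with 116 CPM, had the lowest Il6 of the STZ-macrophage libraries. Among control-macrophage libraries, replicate 3 was highest in both, with 62.8 CPM of these markers and 0.401 CPM of Il6. STZ-macrophage replicates 2 and 4 also held the 164 and 143 CPM of islet endocrine markers. The part of RNA from myeloid, islet or other cells in the Il6, Osm and Lif values was not tested. Il6 lies at chr5:30013114-30019981 on the plus strand.

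**Figure D3:**
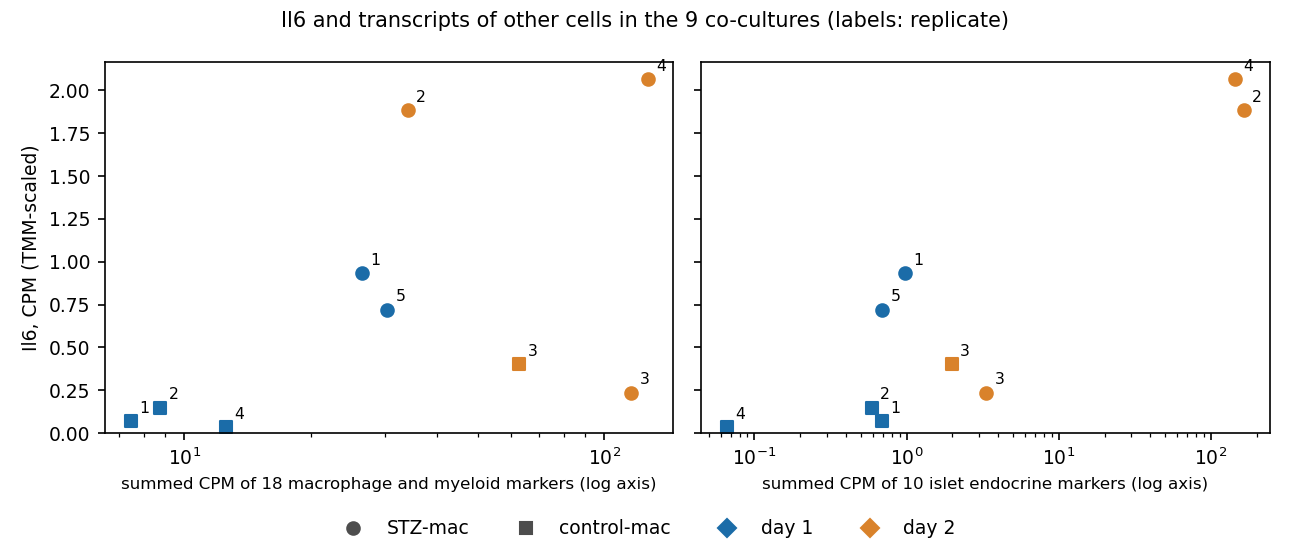
Il6 in CPM (linear axis) against the summed CPM of 18 macrophage and other myeloid markers (left, log axis) and of 10 islet endocrine markers (right, log axis) in the 9 co-cultures; circles are STZ-macrophage and squares control-macrophage libraries, coloured by collection day and labelled by replicate. STZ-macrophage replicates 2 and 4 are highest in Il6 and in endocrine markers, and STZ-macrophage replicate 3 lies below control-macrophage replicate 3 (0.236 and 0.401 CPM of Il6).

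**Figure D4:**
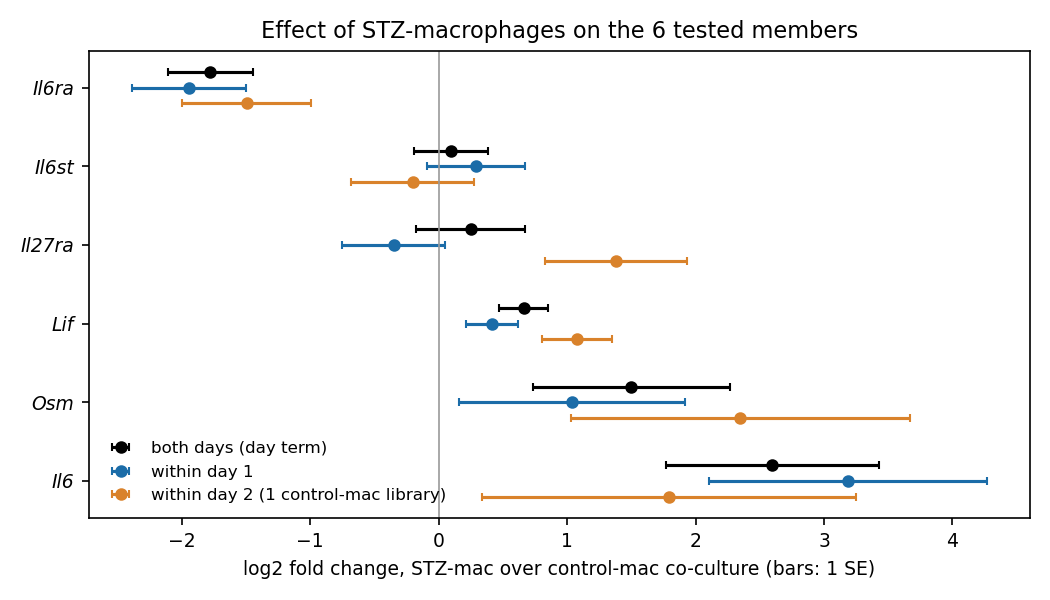
Log2 fold change of STZ-macrophage over control-macrophage co-cultures for the 6 tested members, for both days together and within each day, with bars of 1 standard error; day 2 has 1 control-macrophage library. Il6ra lies below 0 in all 3 estimates and Lif, Osm and Il6 above it, and only the pooled Il6ra value was called.

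Across the family's wider relatives, the receptors of IL-12 and IL-23 rose in co-culture while Clcf1 and Il11ra1 fell. Of 19 further cytokines and receptors of the family and its relatives, 9 were tested; genes said here and below to have risen or fallen had an adjusted p of at most 0.0382 (edgeR), that of Ptpn2. In STZ-macrophage co-cultures against cells alone 5 were higher and 2 lower (median log2 fold change 4.73, against -0.05 over all genes). In control-macrophage co-cultures 4 were higher and 2 lower (median 1.19, against -0.13). Of all genes tested, 43.1% were called with STZ and 45.0% with control macrophages. Il12rb2, the IL-12 receptor chain, averaged 336 ± 23.4 CPM with STZ macrophages and 179 ± 93.0 with control macrophages, against 0.218 ± 0.366 in cells alone (SD, n = 5, 4 and 4), with log2 fold changes of 10.20 with STZ and 9.39 with control macrophages. Il12rb1, shared by the IL-12 and IL-23 receptors, was at least 2337-fold and 1427-fold higher, and Il23r, the IL-23 receptor chain, at least 237-fold and 46.2-fold higher, with STZ and with control macrophages. Clcf1, a gp130 ligand, averaged 5.202 ± 1.93 CPM with STZ macrophages and 3.86 ± 2.70 CPM with control macrophages, against 95.9 ± 71.4 CPM in cells alone (log2 fold change -3.57 with STZ and -4.47 with control macrophages). Il11ra1, the IL-11 receptor chain, had log2 fold changes of -3.47 with STZ and -4.08 with control macrophages. Ebi3, a subunit of IL-27, rose by 8.82 with STZ and 7.28 with control macrophages, from 6 counts over the cells alone. It was at 2.36 to 19.0 CPM with STZ and 0.956 to 13.6 CPM with control macrophages. Between the co-cultures none of the 9 passed, and the smallest p-values belonged to Il23a (1.62 ± 0.580 CPM with STZ and 0.167 ± 0.282 CPM with control macrophages, adjusted p = 0.163) and Il23r (5.42 ± 2.04 CPM with STZ and 1.19 ± 1.21 CPM with control macrophages, adjusted p = 0.166), with a list median of 1.55. The other 10 genes of the list, Osmr and Il27 among them, had too few counts to test. The part of RNA from myeloid cells in the values of this list was not tested.

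Of 12 signal transducers, 11 were tested. Against cells alone, 2 were higher and 2 lower with STZ macrophages, where 43.1% of all genes were called. With control macrophages 2 were higher and 3 lower, where 45.0% of all genes were called. Jak1, a kinase of gp130 receptors, fell (-2.40 and -2.71), as did Jak2 (-1.23 and -0.67), with STZ and with control macrophages against cells alone. Gab2, an adaptor, was at least 19.8-fold higher with STZ and 8.77-fold higher with control macrophages, but near the floor. It was at 0.185 to 0.560 CPM with STZ macrophages (87 counts) and 0 to 0.396 CPM with control macrophages (30 counts). In cells alone it was at 0, so the control-macrophage libraries overlapped cells alone. Stat5b fell with control macrophages (-1.29). Stat3, named after its values were seen, did not pass in any comparison; it was at 409 and 380 CPM in the day 1 STZ-macrophage libraries and 62.0 to 67.5 CPM in those of day 2, against 44.4 to 87.2 CPM in control-macrophage libraries and 60.8 to 303 CPM in cells alone. Between the co-cultures 0 of the 11 were called, where Stat5b (89.6 ± 69.3 CPM with STZ macrophages and 44.8 ± 24.2 CPM with control macrophages, adjusted p = 0.152) and Jak2 (27.5 ± 5.64 CPM with STZ and 37.1 ± 6.86 CPM with control macrophages, adjusted p = 0.166) had the smallest p-values.

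Cish and Socs2, which encode feedback inhibitors of cytokine receptors, rose in co-culture. Socs1 and Socs3 of the same list, named after their values were seen, did not pass in any comparison. Against cells alone Socs3 had log2 fold changes of 0.65 with STZ (adjusted p = 0.523, edgeR) and -0.62 with control macrophages (adjusted p = 0.574). Between the co-cultures it was 1.27 (adjusted p = 0.305). Of 10 inhibitors and shedding enzymes, all tested, 4 were higher and 1 lower in each co-culture against cells alone. The share of all genes called was 43.1% with STZ and 45.0% with control macrophages. Cish averaged 384 ± 80.8 CPM with STZ macrophages and 263 ± 43.3 CPM with control macrophages, against 9.11 ± 2.57 CPM in cells alone (log2 fold change 5.29 with STZ and 4.82 with control macrophages). Socs2 rose by 10.47 with STZ and 9.51 with control macrophages. Pias1, an inhibitor of STAT factors, fell (-1.61 with STZ and -0.93 with control macrophages), and Ptpn2, a phosphatase of JAK and STAT proteins, rose by 0.68 with STZ and 0.51 with control macrophages. Adam10, a protease that can shed the IL-6 receptor, rose by 1.08 with STZ macrophages, and Ptpn6 rose by 0.62 with control macrophages. Between the co-cultures none of the 10 passed, with Pias1 (148 ± 25.5 CPM with STZ macrophages and 212 ± 39.8 CPM with control macrophages, adjusted p = 0.152) and Ptpn6 (543 ± 118 CPM with STZ and 623 ± 176 CPM with control macrophages, adjusted p = 0.194) closest.

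Of 18 genes induced through STAT3 in CD4+ T cells, 2 were called between the co-cultures, where 0.323% of all genes were called. Both were higher with STZ macrophages: Il17a and Il22, cytokines of Th17 cells. Il17a was at 7.87, 6.46, 8.31, 10.4 and 9.20 CPM in STZ-macrophage libraries, against 0.620, 0.197, 1.11 and 0.264 CPM in control-macrophage libraries (log2 fold change 3.89, adjusted p = 0.0312). Il22 was at 367, 51.4, 76.3, 228 and 410 CPM in STZ-macrophage libraries, against 9.40, 13.03, 12.4 and 25.1 CPM in control-macrophage libraries (4.07, adjusted p = 0.0312), and has a near-identical copy, Iltifb, with which its reads may be split. Neither gene overlapped between the co-cultures. In 23 alternatives the log2 fold change stayed between 3.32 and 4.72 for Il17a and between 3.78 and 4.79 for Il22. Both calls were lost with the replicate block (adjusted p = 0.554), without STZ-macrophage replicates 2 and 4 together, without STZ-macrophage replicate 1, 4 or 5 and without control-macrophage replicate 1, 2 or 4. That of Il17a was also lost without STZ-macrophage replicate 2 or 3 and on day 1 only, and that of Il22 without the day term, so that Il17a was called in 12 and Il22 in 14 of the 23. The list's median log2 fold change was 0.99, against -0.13 over all genes. Against cells alone, 11 of the list were higher and 1 lower with STZ macrophages, where 43.1% of all genes were called. With control macrophages 9 were higher and 1 lower, where 45.0% of all genes were called. Il22 was at least 9685-fold and 652-fold higher, Il17f at least 4281-fold and 937-fold, Il17a at least 368-fold and 21.6-fold, and Il10 at least 366-fold and 122-fold, with STZ and with control macrophages. Icos, a costimulatory receptor, rose by 2.29 with STZ and 2.84 with control macrophages. Bcl3 rose by 3.45 with STZ and 2.43 with control macrophages, and Batf by 1.45 with STZ and 1.69 with control macrophages. The part of the myeloid markers given above in these values was not tested.

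**Figure D5:**
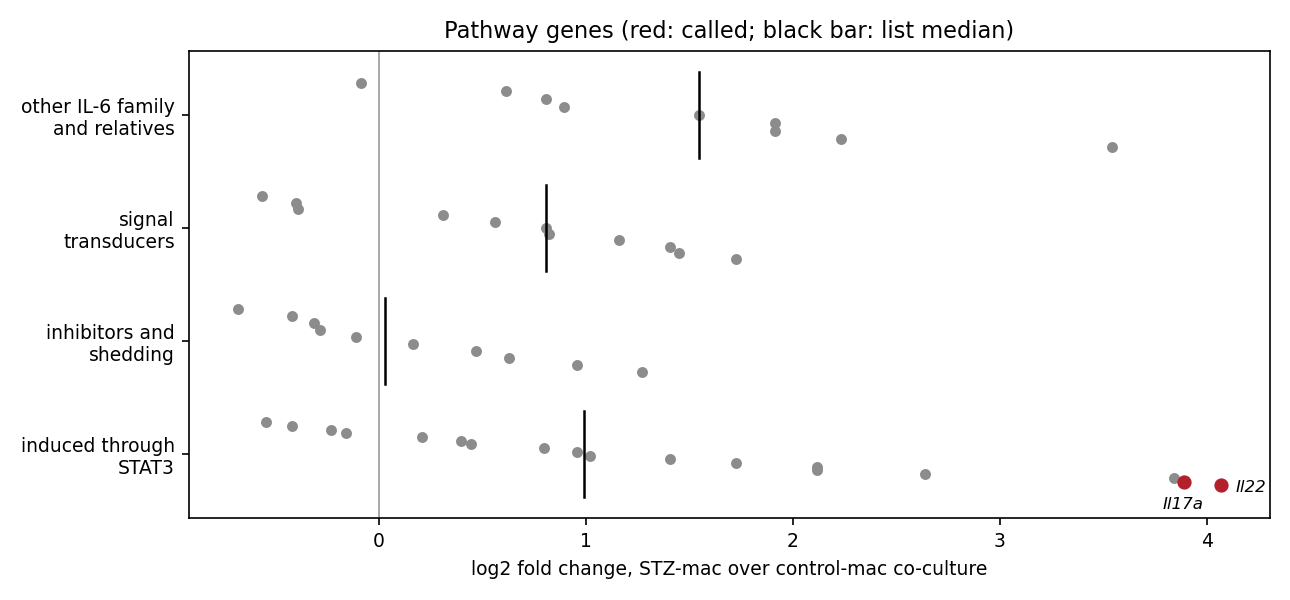
Log2 fold change of STZ-macrophage over control-macrophage co-cultures for the tested genes of 4 pathway lists, each point a gene, red where called and the black bar the list's median. Il17a (3.89) and Il22 (4.07) are the 2 called genes.

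Among 7368 genes, those whose log2 CPM ran most like Il6st over the 9 co-cultures were Trp53inp1 (Pearson r 0.983), Ibtk, Usp28, Epc1 and Il17ra (0.964). For Lif they were Car12 (0.985), Atf6, Timm8a1, Hip1 and Tes (0.940), for Osm Mars1 (0.998), Uso1, Erp44, Ampd2 and Clns1a (0.994), and for Il27ra Map3k14 (0.993), Kansl3, Acat1, Aldh16a1 and Tmco4 (0.984). These are descriptions over libraries that share a culture type and differ in treatment of the macrophage donors, in day and in depth. Il6ra and Il6 were below the level needed for this comparison.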

How the data were processed

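The authors deposited estimated counts per gene without normalization (55774 entries, 13 libraries, 0 columns unmatched); 11.0% of values are not whole, and all were rounded. Of the members' 91 values, 2 are not whole, both of Il6ra in cells alone. A second deposited table holds log2 values the authors adjusted for 12236 genes by a method not given in the sources used here, and it served as an alternative. Per the labels' protocols, 10 ng of RNA (integrity score over 8.0) went into an unstranded template-switching kit, read as 150-base pairs on a NovaSeq. Per the submitters' processing notes, DESeq2 and GRCm38 were used; aligner and annotation: not given in the sources used here.

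Genes were kept by filterByExpr (15781), scaled by TMM and tested with edgeR 4.0.16 (R 4.3.3; quasi-likelihood, robust) on all 13 libraries with group and day terms, adjusted by Benjamini-Hochberg; called below 0.05. The script was tested on simulated data. SE is the absolute log2 fold change divided by the root of F, and intervals are 2 SE to each side. Within-day values came from a fit with 1 mean per group and day; day 2 has 1 control-macrophage library, assumed to vary like the others. CPM are counts over the library size times its TMM factor. Per-kb values divide by exonic bases of GENCODE vM21. Where a group had no count, a fold is a bound from a floor of 3 counts over that group. Floors cover counting error only, since reads carry no molecular identifiers. Library pairs within a group differed beyond sampling noise (lowest chi-square per degree of freedom 25.7).

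Same-numbered control-macrophage and cells-alone libraries deviated together in all 4 pairs (r 0.16 to 0.35), although 2 of the 4 correlated best with their own number and other numbers reached 0.43. The pairing is from the data and not the labels. The reported fit has no replicate block; the blocked value is given beside a result where it changes the call. STZ-macrophage numbers did not pair. Alternatives were RLE scaling, library totals, no filter, DESeq2 1.42.0, no day term, a replicate block, only the groups compared, day 1 only, without STZ-macrophage replicates 2 and 4, the adjusted table with limma 3.58.1, and leaving out each library. The members, lists and tests were chosen with earlier results of these data known. All members are described; of each list, called genes are named (up to 6 by smallest p), or else the 2 with the smallest p, and by likeness the 5 genes with the highest r. Results of some list genes are not reported here.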

Additional observations from a re-analysis of the deposited data

Results flagged for a closer look

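Among 18 groups of 4 or 5 libraries examined for the members, 2 held a library far from the others; chance alone flags about 5% of such groups. Lifr was at 0.0980 CPM in STZ-macrophage replicate 1, from 4 counts, and at 0 in the other 4 STZ-macrophage libraries. Osm was at 16.5 CPM in cells-alone replicate 2, against 0.995 to 3.59 CPM in the other 3 cells-alone libraries, a gap of 0.832 of the group's range; the same library had the highest Il6ra of the group, 132.85 CPM.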

How the results depend on the processing

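Of 410 recomputed values, 377 kept their direction and their side of the threshold, 21 lost a call, 4 gained one and 8 changed sign. Between the co-cultures, the 1 member called became 0 with RLE scaling, library totals, no filter, the replicate block, day 1 only or without STZ-macrophage replicates 2 and 4, 2 with DESeq2 (Il6ra and Lif), 3 with only the groups compared (Il6ra, Lif and Il6), and 0 to 2 when single libraries were left out. All genes called there, 51, became 674 with DESeq2, 19 without the day term, 0 with the replicate block, 2698 with only the groups compared, 7 on day 1 only, 0 without STZ-macrophage replicates 2 and 4, 88 in the authors' adjusted table, and 0 to 582 when single libraries were left out. In edgeR, 3604 genes had an unadjusted p below 0.05 there. With RLE scaling 30 were higher and 14 lower, and with library totals 38 and 19, against 24 and 27; the median log2 fold change of all genes was -0.03 and 0.07 under these scalings, against -0.13. Against cells alone, control-macrophage co-cultures had 3641 higher and 3465 lower genes, and 2912 and 4639 with library totals.

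With the replicate block, Il6ra between the co-cultures was -1.83 (adjusted p = 0.554), genes called in STZ-macrophage co-cultures against cells alone were 3476, not 6807, and Il6 lost both calls against cells alone; it changed no other member's call. With only the groups compared, members called in control-macrophage co-cultures against cells alone were 3 of 5 tested (Il6 was not tested), where 33.0% of all genes were called, and 2 members had a called day difference, where 12.1% of all genes did, against 0 in edgeR with all libraries and in DESeq2 (1 member, Il27ra, at an unadjusted p below 0.05 in each); that difference could not be fitted without control-macrophage replicate 3. Il6ra between the co-cultures also missed the threshold with RLE scaling (adjusted p = 0.0658), library totals (0.111) and no filter (0.0571). Signs turned for Il6st between co-cultures without the day term (-0.26), with the replicate block (-0.23) and without STZ-macrophage replicate 1 (-0.0017; 0.44 at the other end of the fits without 1 library), and for Il27ra without the day term (-0.078), on day 1 only (-0.21) and without control-macrophage replicate 3 (-0.21; up to 0.52 without 1 library). Il27ra turned against cells alone in the authors' adjusted table (-1.37 with STZ and -1.97 with control macrophages). The causes were not tested. Il17a and Il22 between the co-cultures kept their sign in all 23 alternatives. Depth limits Lifr and, in control-macrophage co-cultures, Il6.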

Other observations

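Osmr, Il27 and Il11, relatives of the family with too few counts to test, were also unevenly spread. Osmr, the oncostatin M receptor chain, had 81 counts in 4 of 5 STZ-macrophage libraries, 12 counts in 1 of 4 control-macrophage libraries and 0 in cells alone. Il27, a subunit of IL-27, had 54 counts over all 5 STZ-macrophage libraries, 1 count in control-macrophage libraries and 0 in cells alone. Il11, a gp130 ligand, had 21 counts in 4 of 5 STZ-macrophage libraries and 0 in the other groups. The highest count in any library was 40 for Osmr, 23 for Il27 and 10 for Il11. Summed macrophage and other myeloid markers were 26.5 to 127 CPM in STZ-macrophage libraries and 7.44 to 62.8 CPM in control-macrophage libraries. Summed islet endocrine markers were 164 and 143 CPM in STZ-macrophage replicates 2 and 4 and at most 3.33 CPM in the other co-cultures. The part of either marker list in these counts was not tested.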
